A study of Mus musculus with 2 samples.

Results

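Epithelial cells are held together, coupled and oriented by a small set of membrane and scaffold proteins, and 76 genes of this kind were followed in 2 individual cells from the rim of the developing mouse eye. They were taken by gene symbol: claudins, connexins, pannexins, Tjp1 and Tjp3, occludin and its Marveld relatives, Jam2 and Jam3, the Par genes Pard3 and Pard6 with their relatives, Crb1 and Crb3, and the tetraspanins named Tspan. The array carried 143 probe sets for them, out of 34958 probe sets with 1 gene symbol and 45101 in all, and the 76 genes were set against 18194 named genes. They comprised 24 claudins, 14 connexins, 3 pannexins, 2 zonula occludens genes, 4 MARVEL genes, 2 JAM genes, 6 Par genes, 2 Crumbs genes and 19 tetraspanins. Pard3bos1, counted with the Par genes because its name matches, is a transcript from the opposite strand of Pard3b. Both strands of the amplified cDNA were labelled, so an array signal does not tell such a transcript from its partner.

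The first cell was taken on postnatal day 0 (P0) and the second on embryonic day 12.5 (E12.5), both from the dissociated retina of CD1 mice with no mutation or treatment named. Both were picked by capillary after papain dissociation, and their cDNA was amplified by 35 cycles of PCR before each was hybridised to its own array. Neither scored for a retinal cell type, and from their expression on the arrays the submitters placed both in the region that becomes ciliary body and iris. Each age has 1 cell and no replicate, so no test was possible and every difference below is a difference between these 2 cells. Values given as "at P0" and "at E12.5" are those of the single cell of that age.

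Tight junctions close the space between epithelial cells with strands of claudins, joined by occludin and the JAM proteins and tied to actin by the zonula occludens scaffolds. Gap junctions are channels of connexins that couple neighbouring cells, while pannexins form related channels that open to the outside of the cell. The Par and Crumbs complexes mark the apical side of the cell, and tetraspanins organise other membrane proteins into patches. In the mature ciliary epithelium gap junctions couple the pigmented and the non-pigmented layer, and tight junctions of the non-pigmented layer form part of the barrier between blood and aqueous humour.

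A gene was counted as detected when its signal passed the background limit of the array, the 99th percentile of 197 probe sets for gene families that the eye is not known to use, such as olfactory and taste receptors. The limit was 343 at P0 and 240 at E12.5, on the linear MAS5 signal scale. A gene with several probe sets is represented by the brightest of them, taken over both cells on the log2 scale. Of the 76 genes, 12 (15.8%) were above the limit at P0, where 28.4% of all named genes were. In the E12.5 cell 18 of the 76 (23.7%) were, against 30.6% of all named genes. A total of 10 (13.2%) were above it in both, against 18.8% of all named genes, and 20 (26.3%) in at least 1 cell, against 40.2%. The detected genes were thus a smaller share of this set than of the array in both cells. This shortfall lay in the 57 genes that are not tetraspanins, of which 10.5% were above the limit at P0 and 17.5% at E12.5. With the limit at the 95th percentile the counts were 22 of 76 at P0 (28.9%, against 40.3% of all named genes) and 21 at E12.5 (27.6%, against 38.9%).

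**Figure D1:**
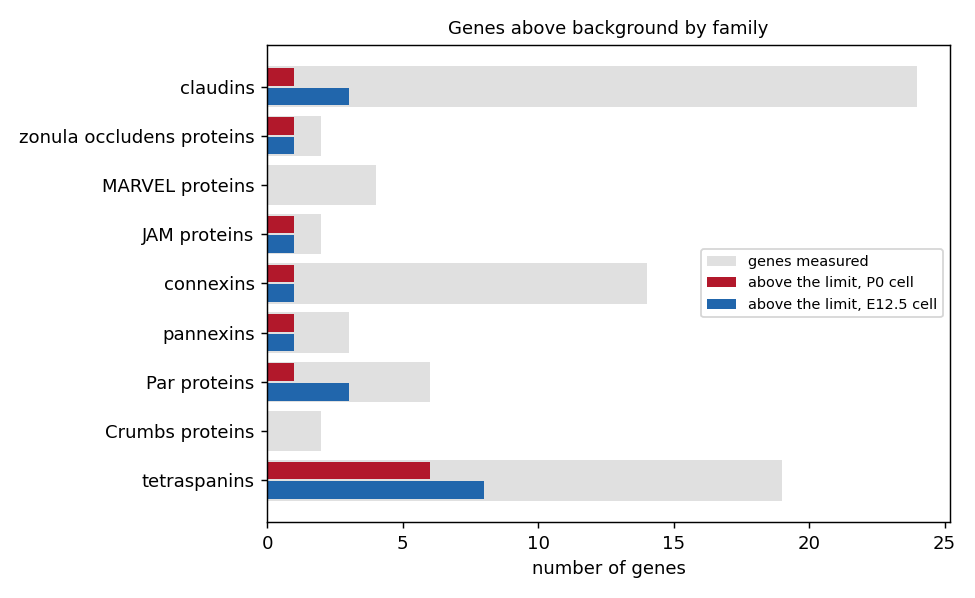
Number of genes measured in each family (grey bars) and number above the background limit at P0 (red) and at E12.5 (blue). Tetraspanins supplied 6 of the 12 genes detected at P0 and 8 of the 18 at E12.5, while 21 of 24 claudins and 12 of 14 connexins were below both limits.

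Of the 76 genes, 4 (5.26%) were at least 4-fold higher at P0, against 9.42% of all named genes, and 6 (7.89%) were at least 4-fold higher at E12.5, against 7.37%. The connexin gene Gjc1, the pannexin gene Panx1 and the tetraspanin genes Tspan12 and Tspan18 were the 4 higher at P0. The claudin gene Cldn12, the connexin gene Gja1, the polarity gene Pard3 and the tetraspanin genes Tspan4, Tspan13 and Tspan14 were the 6 higher at E12.5. Signals below a limit were raised to that limit before the ratio was taken, so a fold against an undetected signal is a lower bound, written "at least". As the limit was higher at P0, a gene undetected in the other cell needed a brighter signal for a call at E12.5. Of all named genes 1714 were called at P0 and 1340 at E12.5. With the limit at the 95th percentile these counts were 1989 and 1955, and with bacterial controls 2035 and 2070. The members called were then 4 and 8 with either limit. With each array rescaled to its hybridisation spike-ins, the split was 2 and 7, with Panx1 and Tspan18 no longer 4-fold higher at P0 and Cldn1 reaching 4-fold at E12.5. The median log2 ratio of all genes detected in both cells was -0.77 under that scaling and 0.02 as deposited. The median log2 ratio of P0 over E12.5 was 0.27 over the 20 members detected in at least 1 cell and 0.03 over all 7323 such genes. Scaled to the spike-ins both medians turned negative, -0.52 over the members and -0.76 over all genes, and with the limit from bacterial controls they were 0.003 and -0.15.

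**Figure D2:**
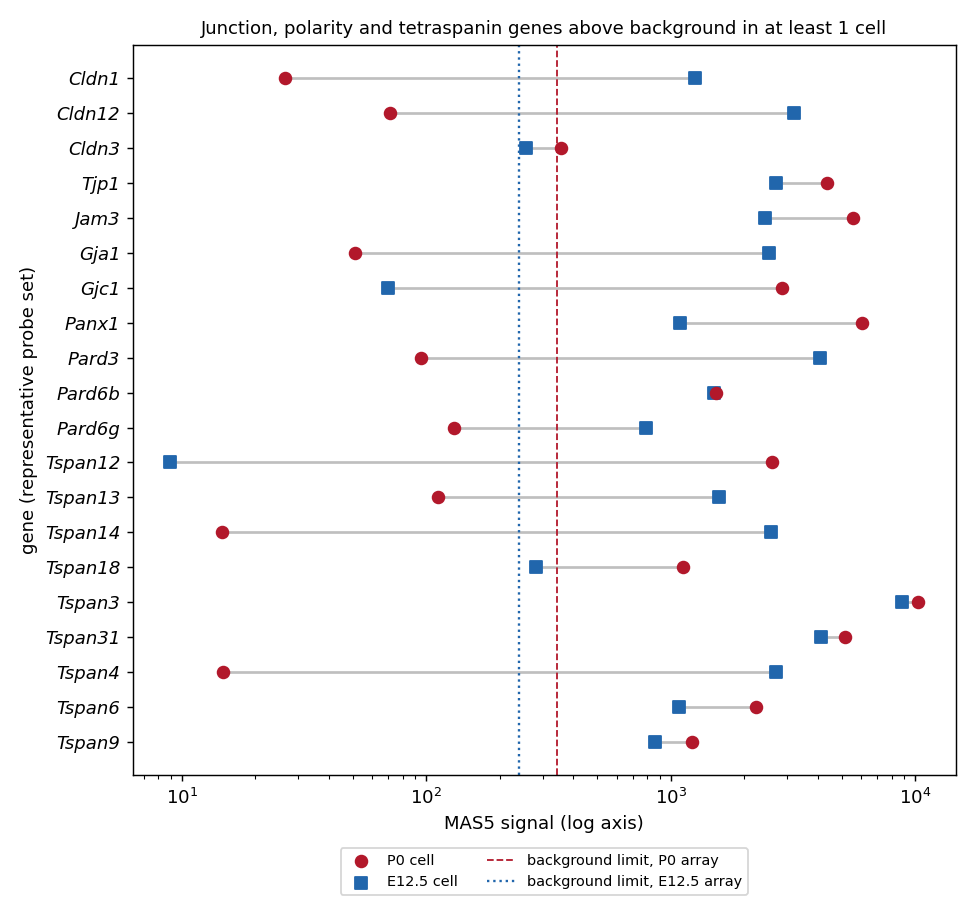
MAS5 signals (log axis) of the 20 genes above the limit in at least 1 cell, for the P0 cell (red circles) and the E12.5 cell (blue squares), with the limits of the P0 array (dashed) and the E12.5 array (dotted). In 10 genes both points lie right of their limits, in 2 only the P0 point does and in 8 only the E12.5 point does. Signals of different genes come from different probes and cannot be ranked.

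The DNA before the gene start is shown for 4 genes, 1 for each outcome of detection. Pard6b was detected in both cells on its representative probe set, and Tspan12 only at P0. Gja1 was detected at E12.5 only and Tspan32 in neither cell. Pard6b and Tspan32 lie at or near the ends of the range of CG content among the genes followed, so they are not typical of their groups. Each sequence is the 250 bases before the start in RefSeq, build GRCm38.p6, 5′ to 3′ on the gene's strand, with CG dinucleotides in capitals. Such CG-rich DNA marks many promoters of broadly expressed genes.
Pard6b: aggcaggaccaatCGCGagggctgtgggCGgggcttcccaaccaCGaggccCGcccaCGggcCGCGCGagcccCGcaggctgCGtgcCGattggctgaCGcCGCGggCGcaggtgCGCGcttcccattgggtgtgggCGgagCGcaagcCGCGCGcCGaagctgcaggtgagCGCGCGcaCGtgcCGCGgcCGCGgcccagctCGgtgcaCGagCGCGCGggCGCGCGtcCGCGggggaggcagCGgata
Tspan12: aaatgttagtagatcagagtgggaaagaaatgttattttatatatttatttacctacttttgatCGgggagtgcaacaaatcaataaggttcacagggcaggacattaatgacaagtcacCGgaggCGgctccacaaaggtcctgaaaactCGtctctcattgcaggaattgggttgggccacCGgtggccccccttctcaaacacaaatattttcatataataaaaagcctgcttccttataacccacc
Gja1: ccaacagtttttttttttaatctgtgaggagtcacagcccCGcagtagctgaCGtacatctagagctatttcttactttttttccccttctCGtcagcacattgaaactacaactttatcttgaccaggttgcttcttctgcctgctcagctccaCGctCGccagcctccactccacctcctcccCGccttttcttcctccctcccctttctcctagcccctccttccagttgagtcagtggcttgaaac
Tspan32: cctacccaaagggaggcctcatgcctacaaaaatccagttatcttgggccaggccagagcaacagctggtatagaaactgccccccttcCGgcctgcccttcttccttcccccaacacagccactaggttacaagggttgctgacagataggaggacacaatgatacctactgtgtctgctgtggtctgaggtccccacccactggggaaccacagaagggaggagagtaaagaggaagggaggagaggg
The Pard6b sequence, at chr2:168080754-168081003 on the plus strand, held 43 CG dinucleotides. The Tspan12 sequence (chr6:21852534-21852783, minus strand) held 5, and the Gja1 sequence (chr10:56377050-56377299, plus strand) held 6. The Tspan32 sequence (chr7:143004796-143005045, plus strand) held 1.

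RefSeq promoters were found for 61 of the 76 genes, and CG content was lower on the whole in the undetected ones. The number of CG dinucleotides was divided by that expected from the C and G content of the same 250 bases, and averaged over the starts of a gene. The ratio had a median of 0.64 (range 0.35 to 1.15) over 16 genes above the limit in at least 1 cell. Over 45 genes below both limits the median was 0.39 (range 0 to 1.07). Of the genes printed above, Pard6b had the highest ratio of all (1.15) and Tspan32 one near the lowest (0.05). The ranges overlapped widely: Tspan5 (1.07), Tspan15 (0.98), Gja3 (0.97) and Gjd2 (0.97) were CG-rich and undetected. Among all named genes with a promoter the medians were 0.75 over 6021 detected genes and 0.45 over 8432 undetected ones, so the same order held across the array. The GC box letters GGGCGG, searched on both strands, were present before 10 of the 16 detected genes (62.5%) and 21 of the 45 undetected ones (46.7%), against 67.4% and 43.4% of all named genes. Counted per gene without regard to detection, 53.4% of all named genes had it. Over single starts the share with GGGCGG was 44.7% of 85 member starts and 32.7% of all 32851. The 32851 starts include genes not on the array, and a gene with several starts counts several times. No excess in the members is read from the shares of starts. The TATA box letters TATAAA, also on both strands, stood before 11.8% of member starts and 12.4% of all.

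**Figure D3:**
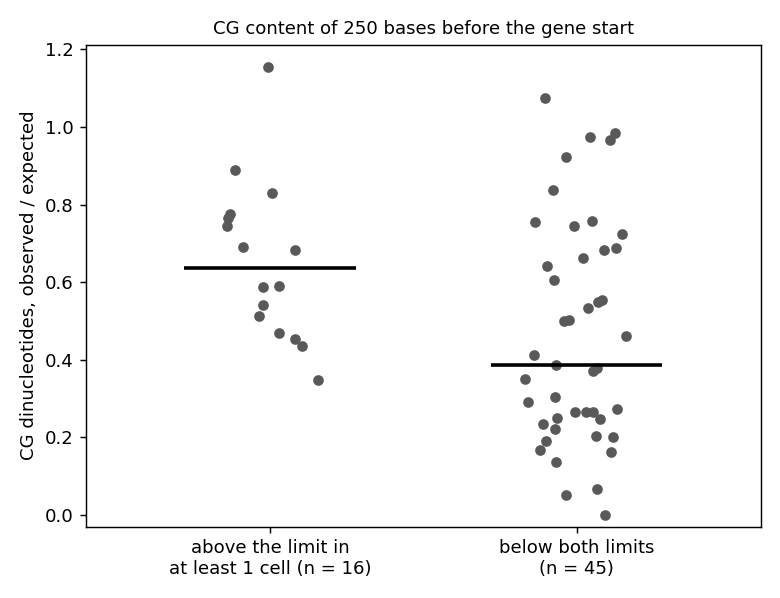
Observed over expected CG dinucleotides in the 250 bases before the gene start, 1 point per gene (averaged over its starts; sideways spread carries no meaning), for 16 genes above the limit in at least 1 cell and 45 below both limits. Bars are medians, 0.64 and 0.39, and the points of the groups overlap.

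Of the 24 claudin genes, which build the strands of tight junctions, 3 were detected at E12.5 and 1 of these also at P0. The array shares were 30.6% at E12.5 and 28.4% at P0. Cldn12, a claudin that lacks the scaffold-binding tail of its relatives, had a signal of 71.1 at P0 and 3183 at E12.5, where it was at least 9.28-fold higher. Its second probe set gave 70.3 at P0 and 2502 at E12.5, at least 7.29-fold. Both probe sets were thus high at E12.5 only. Cldn1, the barrier-forming claudin of skin, had 26.3 at P0 and 1254 at E12.5, at least 3.65-fold, just short of the 4-fold rule. It passed that rule with either lower limit (log2 ratio -3.54 at the 95th percentile and -4.07 with the bacterial controls), with the pseudocount and under the spike-in scaling. Another probe set of Cldn1 gave 5.71 and 1268, in the same order, and the remaining 2 were below both limits. Cldn3, a barrier-forming claudin of many epithelia, was barely above background in both cells, with 354.5 at P0 and 255 at E12.5, a 1.39-fold difference. Its 3 other probe sets were below both limits.

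The other 21 claudins were detected in neither cell, with signals between 1.44 and 227 at P0 and between 1.96 and 168 at E12.5. They were Cldn2, Cldn4, Cldn5, Cldn6, Cldn7, Cldn8, Cldn9, Cldn10, Cldn11, Cldn13, Cldn14, Cldn15, Cldn16, Cldn18, Cldn19, Cldn22, Cldn23, Cldn34b2, Cldn34c1, Cldn34c4 and Cldn34d. Among them Cldn14 came nearest to a limit, with 227 at P0 and 168 at E12.5. Cldn5, the main claudin of blood vessel endothelium, had 76.2 at P0 and 11.8 at E12.5. Cldn19, which pigment epithelium of the retina uses for its barrier, had 8.41 at P0 and 95.7 at E12.5. A transcript can be lost during amplification from a single cell, so undetected genes cannot be called absent.

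Tjp1, which encodes the scaffold ZO-1 that ties claudins to actin, was well above background in both cells, with 4359 at P0 and 2687 at E12.5, 1.62-fold apart. Its relative Tjp3 was detected in neither, with 49.4 at P0 and 84.1 at E12.5. The 4 MARVEL genes were also below both limits: occludin (Ocln), tricellulin (Marveld2, which seals corners where 3 cells meet), Marveld1 and Marveld3. Their representative probe sets ran from 28.3 to 64.4 at P0 and from 4.27 to 85.2 at E12.5. Other probe sets lay outside this range, such as 138 at P0 for Marveld1 and 1.70 at P0 for Ocln, and were also below both limits. Jam3, an adhesion molecule of the immunoglobulin type, had 5587 at P0 and 2419 at E12.5, 2.31-fold higher at P0. Its second probe set was below both limits. Jam2, its close relative, was below both limits on its representative probe set, with 130 at P0 and 39.0 at E12.5. A different probe set of Jam2 gave 1342 at P0 and lay below the limit at E12.5, at least 5.58-fold higher at P0, and the remaining 3 were below both limits. Jam2 was the only gene of the 56 undetected ones with such a probe set.

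Of 14 connexins, 1 was detected at P0 and another at E12.5 (against 28.4% and 30.6% of all named genes). With 1 gene in each cell, nothing is read from their being different genes. Gja1, the most widely expressed connexin and a component of ciliary epithelial gap junctions, had 50.9 at P0 and 2520 at E12.5, at least 7.34-fold higher at E12.5. Of its 5 other probe sets, 4 were above the limit at E12.5 (713 to 3341) and all 4 were below the limit at P0 (4.28 to 25.4). All 4 carry the suffix _x_at, which marks probes that may also bind transcripts of other genes. The remaining probe set was below both limits, with 36.2 at P0 and 160 at E12.5. Gja1 fell short of 4-fold when all 6 probe sets were averaged, at a log2 ratio of -1.88. Gjc1, a connexin known from early heart, smooth muscle and some neurons, showed the reverse order, with 2839 at P0 and 69.9 at E12.5, at least 11.8-fold higher at P0. Its second probe set, also with the suffix _x_at, gave 840 and 13.8, at least 3.50-fold higher at P0. Gja3, a lens fibre connexin, Gja4 and Gja5 of blood vessels, Gja10, Gjb1, Gjb2, Gjb5, Gjb6, Gjc3, the neuronal Gjd2, Gjd4 and Gje1 were below both limits, with signals up to 101 at P0 and 119 at E12.5.

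Panx1, whose channels release ATP, was detected in both cells, with 6053 at P0 and 1088 at E12.5. It was 5.56-fold higher at P0, and its log2 ratio was 2.48. Scaled to the spike-ins the log2 ratio was 1.69, below the 4-fold rule. Panx1 had a single probe set, so no second reading was at hand. Panx2 and Panx3 were below both limits.

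Among the polarity genes, 3 of 6 Par genes were detected at E12.5 and 1 at P0 (against 30.6% and 28.4% of all named genes). Pard3, the scaffold that places the Par complex at apical junctions, had 94.8 at P0 and 4097 at E12.5, at least 11.9-fold higher at E12.5. Its other 3 probe sets were below both limits, and averaged over all 4 Pard3 was detected in neither cell. Pard6b, which bridges Cdc42 and atypical protein kinase C, had 1526 at P0 and 1499 at E12.5 on its representative probe set, 1.02-fold apart. Its second probe set gave 44.7 at P0 and 2600 at E12.5, at least 7.58-fold higher at E12.5, so the readings of Pard6b did not match. The representative one carries the suffix _s_at, which marks probes shared by several transcripts. Pard6g, a relative of Pard6b, had 130 at P0 and 793 at E12.5, at least 2.31-fold higher at E12.5. With either lower limit it passed 4-fold, at a log2 ratio of -2.61. Its second probe set was below both limits, with 12.9 at P0 and 163 at E12.5. Averaged over its probe sets, Pard6g had a log2 ratio of -0.07.

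Pard6a had 164 at P0 and 116 at E12.5, Pard3b had 21.6 and 91.8 and Pard3bos1 had 1.84 and 15.5, all below both limits. Crb1, whose loss causes retinal dystrophy in people, had 99.6 at P0 and 114 at E12.5. Crb3, the Crumbs gene of most epithelia, had 184 at P0 and 34.4 at E12.5. Both Crumbs genes were thus undetected in both cells.

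Tetraspanins made up 9 of the 20 detected genes, with 6 of 19 above the limit at P0, 8 at E12.5 and 5 in both. The shares of all named genes were 28.4%, 30.6% and 18.8%, so the tetraspanins were not below the array. Tspan12, a partner of the norrin receptor in retinal vessel growth, had 2601 at P0 and 8.98 at E12.5, at least 10.8-fold higher at P0. It rests on a single probe set with the suffix _s_at. None of 9 markers of vascular endothelium, among them Cldn5 of the set followed here, was above the limit in either cell. Undetected markers cannot be called absent, and a link of Tspan12 or Tspan18 to endothelium was not tested. Tspan18, known to regulate calcium entry in endothelial cells, had 1124 at P0 and 281 at E12.5. Its 4.01-fold difference lay on the threshold, and was lost under quantile normalisation, with the pseudocount and when scaled to the spike-ins, while its 3 probe sets averaged were undetected. A second probe set of Tspan18 gave 1559 at P0 and 32.1 at E12.5, at least 6.49-fold, and the last was below both limits.

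Tspan4, known for its part in migrasomes, the vesicles left behind by moving cells, had 14.8 at P0 and 2699 at E12.5, at least 7.87-fold higher at E12.5. Tspan14 belongs to the TspanC8 group, which carries the protease Adam10 to the cell surface. It had 14.6 at P0 and 2569 at E12.5, at least 7.49-fold higher at E12.5, and rests on a single _s_at probe set. It was the only 1 of 6 TspanC8 genes above a limit, the others being Tspan5, Tspan10, Tspan15, Tspan17 and Tspan33. Tspan13 had 111 at P0 and 1573 at E12.5, at least 4.58-fold higher at E12.5. Its second probe set, with 3.55 and 2127, was at least 6.20-fold higher there. Tspan4 and Tspan14 had no second probe set.

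Differences under 4-fold were seen for the remaining 4 detected tetraspanins. Tspan3 had 10277 at P0 and 8871 at E12.5, 1.16-fold apart. Tspan31 had 5183 at P0 and 4134 at E12.5, 1.25-fold apart, with 3646 and 1947 on a second probe set. A further probe set of Tspan31 was below both limits, with 88.0 at P0 and 102 at E12.5. On the other probe sets Tspan3 and Tspan31 were strongly detected in either cell. Tspan9, best known from platelets, had 1219 at P0 and 862 at E12.5. Its second probe set was below both limits, with 5.90 at P0 and 90.6 at E12.5. Tspan6 had 2227 at P0 and 1079 at E12.5, but its second probe set gave 13.6 and 827, in the opposite order. Tspan1, Tspan2, Tspan8, Tspan11, Tspan32 and the 5 other TspanC8 genes were below both limits, with signals up to 170 at P0 and 151 at E12.5.

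All 10 genes detected in both cells (Cldn3, Tjp1, Jam3, Panx1, Pard6b, Tspan3, Tspan6, Tspan9, Tspan18 and Tspan31) had the higher signal at P0 as deposited, but 6 of them (Cldn3, Tjp1, Pard6b, Tspan3, Tspan9 and Tspan31) had it at E12.5 after scaling to the spike-ins. Under that scaling 1014 of all 3427 genes detected in both cells (29.6%) were higher at P0. With the limit at the 95th percentile, 11 of 14 members detected in both cells were higher at P0, against 47.7% of all such genes. With the limit from bacterial controls 14 of 19 were, against 45.0%. Quantile normalisation and leaving out _x_at and _s_at probe sets turned Pard6b, and averaging the probe sets turned Pard6b and Tspan6 (log2 ratio -1.46). As deposited, the log2 ratios of the 10 genes ran from 0.03 to 2.48 with a median of 0.60, and 8 differed by less than 4-fold. Of the 3427 named genes detected in both cells, 1730 (50.5%) had the higher signal at P0, and 82.2% differed by less than 4-fold. Between 2 probe sets of the same gene, over 983 genes detected in both cells, the log2 ratio differed with an SD of 1.16. That spread holds the array error of both probe sets but no variation between cells. It is a yardstick and not an error limit for the ratio of a single probe set. The differences of Tjp1, Pard6b, Cldn3, Tspan3, Tspan6, Tspan9 and Tspan31 were smaller than this SD. As deposited, those of Jam3 (log2 ratio 1.21), Tspan18 (2.00) and Panx1 (2.48) were larger, Jam3 only just. Scaled to the spike-ins they were 0.42 for Jam3, 1.22 for Tspan18 and 1.69 for Panx1, so that Jam3 fell below the SD.

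**Figure D4:**
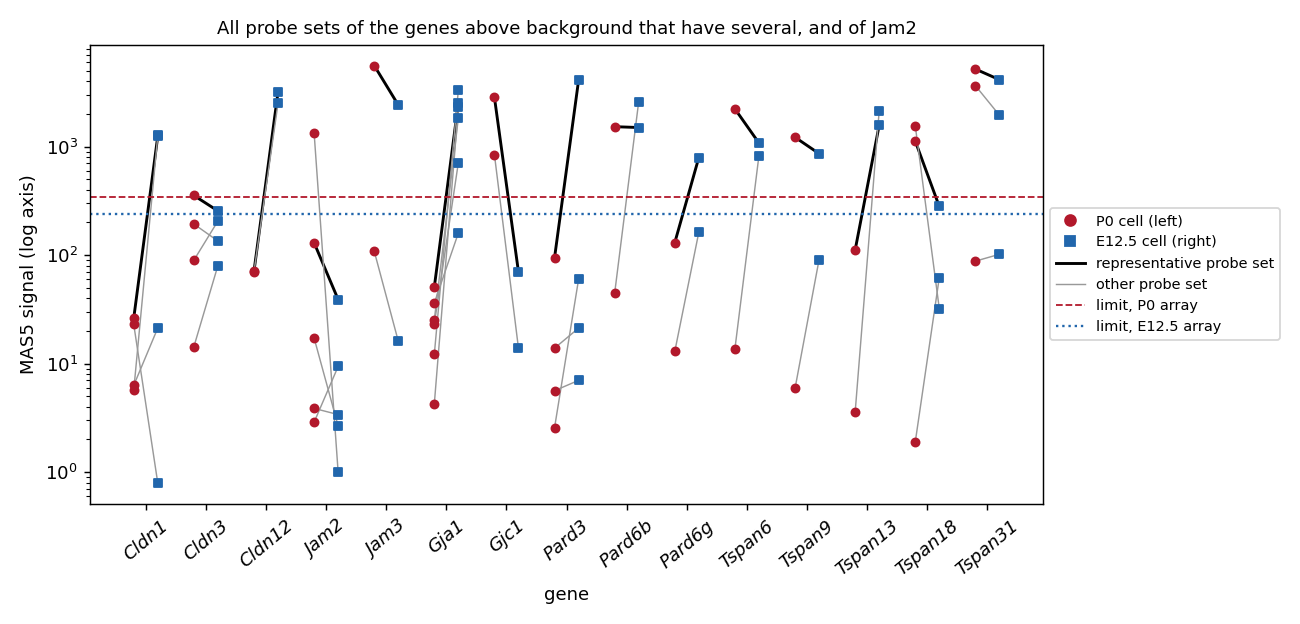
MAS5 signals (log axis) of every probe set of the 14 detected genes with several, and of Jam2; each line joins a probe set's P0 signal (left, red) to its E12.5 signal (right, blue), black for the representative probe set. Lines of Cldn12, Gja1, Gjc1, Tspan13, Jam3, Pard3 and Pard6g run in 1 direction. Among probe sets above a limit in at least 1 cell, only those of Pard6b and Tspan6 disagree. Some lines below both limits oppose the representative one, as in Cldn1, Cldn3, Tspan9, Tspan18 and Tspan31.

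Of the 10 genes that differed by 4-fold or more, 6 had a further probe set and 5 had one above the limit in the brighter cell. Counting instead every further probe set above the limit in either cell, these genes had 8 (4 of Gja1 and 1 each of Cldn12, Gjc1, Tspan13 and Tspan18), and all 8 had the order of the representative one. In 4 of the genes, all but Gjc1, at least 1 of these was itself 4-fold different. The further probe sets of Gja1 and Gjc1 counted here all carry the suffix _x_at. Probe sets of a gene share its transcript and its amplified cDNA, so they check the array reading and not the difference between the cells. Pard3 had none that was detected. Panx1, Tspan4, Tspan12 and Tspan14 had a single probe set each. At the level of probe sets, 16 of 143 were above the limit at P0 (11.2%, against 22.4% of all probe sets with 1 symbol) and 28 at E12.5 (19.6%, against 24.4%).

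Further junction proteins were listed apart from the 76. Of 23 measured junction scaffolds and other tight junction membrane proteins, 7 were above the limit at P0 and 13 at E12.5, and 2 were at least 4-fold higher at P0 and 6 at E12.5. All named genes had shares of 28.4% and 30.6% above the limits, and 9.42% and 7.37% at least 4-fold higher. F11r, the JAM gene of most epithelia, had 4507 at P0 and 47.0 at E12.5, at least 18.7-fold higher at P0. The scaffold gene Magi1 was at least 5.96-fold higher there. In the E12.5 cell the junction plaque protein cingulin (Cgn) was at least 15.1-fold higher, with 60.7 at P0 and 5178 at E12.5. Lsr (at least 7.43-fold) and Ildr2 (at least 15.5-fold), relatives that gather at tricellular junctions, were higher at E12.5 too, as were Amotl2 (9.31-fold), Arhgap17 (5.46-fold) and the actin regulator Vasp (10.7-fold), each as a lower bound. Mpdz, a many-domain scaffold that binds claudins, had 7669 at P0 and 6406 at E12.5.

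Of 24 measured polarity genes that act with the Par and Crumbs proteins, 16 were above the limit at P0, 17 at E12.5 and 13 in both, where the array had 28.4%, 30.6% and 18.8%. At least 4-fold higher were 3 at P0 and 2 at E12.5, against 9.42% and 7.37% of all named genes. Mpp5, the scaffold Pals1 that binds Crumbs, had 3463 at P0 and 15.2 at E12.5, at least 14.4-fold higher at P0. Lin7a (at least 9.19-fold) and the Rac activator Tiam1 (at least 7.51-fold) were also higher there. Patj, another Crumbs complex scaffold, was at least 6.32-fold and the basolateral scaffold Dlg1 at least 7.53-fold higher at E12.5. The small GTPase Cdc42, which activates the Par complex, had 12438 at P0 and 6864 at E12.5, and the basolateral scaffold Scrib had 3983 and 3878, both differing by less than 4-fold. Of 7 nectin, afadin and Cadm genes, 2 were above the limit at P0 and 4 at E12.5, with 0 and 2 at least 4-fold higher. The array shares were 28.4% and 30.6%, and 9.42% and 7.37%, so little can be read from 7 genes. The nectin anchor afadin (Afdn) had 9.63 at P0 and 8693 at E12.5, at least 25.3-fold higher at E12.5, and the adhesion gene Cadm1 was at least 19.8-fold higher there.

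Markers of the labelled region were detected in part in each cell, and they were not independent of how the cells were chosen. For every marker list below, the array shares were 28.4% above the limit at P0 and 30.6% at E12.5. The shares at least 4-fold higher were 9.42% and 7.37%. Of 10 ciliary body and iris genes, 8 were above the limit at P0 and 7 at E12.5, with signals summing to 71223 and 46779. At P0 Cp, Optc, Col18a1 and Mfap2 were at least 4-fold higher (4.22-fold for Mfap2 to at least 31.4-fold for Cp), and at E12.5 Slc12a2 and Foxp2 were. Of 15 ciliary margin genes, 7 were above the limit at P0 and 8 at E12.5, with sums of 32790 and 71125. Bmp7 was at least 7.92-fold higher at P0, and Cdon, Wfdc1, Otx1 and Mecom were at least 4-fold higher at E12.5. Axin2, Bmp4, Lef1, Mitf, Msx1 and Wnt2b of this list lay under both limits.

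Markers of retinal progenitors, which lie beside the margin, were also detected: 9 of 11 at P0 and 10 at E12.5, with sums of 43585 and 92950. Lhx2 and Nr2e1 were at least 4-fold higher at P0, and Pax6, Sfrp2, Hes1, Ccnd1 and Fgf15 at E12.5, by 8.63-fold for Hes1 up to 38.4-fold for Sfrp2. Glial markers differed between the cells: 7 of 8 were above the limit at P0 and 3 at E12.5, their signals summing to 40946 and 13290, and Gfap, S100b, Car2 and Rlbp1 were at least 4-fold higher at P0. Rlbp1 was the only 1 of 10 pigment epithelium markers above a limit, at least 67.1-fold higher at P0. Of 10 pericyte and mesenchyme markers 3 (Rgs5, Pdgfra and Col1a2) were above the limit at P0 and 0 at E12.5, with sums of 6992 and 585, and Pdgfra and Col1a2 passed 4-fold.

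Of 9 amacrine and horizontal cell markers, Gad2 (6459 at P0 and 4515 at E12.5) was above both limits, Calb1 at P0 (at least 10.5-fold higher) and Slc32a1 at E12.5. Of 7 ganglion cell markers Ebf3 was at least 4.33-fold higher at P0 and Gap43 at least 4.25-fold at E12.5, and the other 5 were below both limits. The part of these marker genes in the differences above was not tested. No marker of photoreceptors (of 7), surface ectoderm and cornea (of 7), microglia (of 8) or erythroid cells (of 4) was above a limit, and of 9 lens markers 1, Cryba2, was above it, at E12.5.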

How the data were processed

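Each of 2 cells was measured on 1 Affymetrix mouse array. The authors deposited MAS5 signals, linear intensities, 1 for each probe set and cell, per the submitters' processing notes. The MAS5 version is not stated there. Each array was scaled on its own: the mean without 2% at each end was 500.0 in both. Oligo dT priming favours 3′ ends, and amplification can lose transcripts. No detection calls or replicate arrays were used, so no p-value, interval or read depth applies, and the number of arrays limits the precision.

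Symbols came from GEO's platform annotation: 34958 probe sets had 1 symbol, 932 several and 9211 were not listed. Of the 34958, 34754 symbols were updated by gene identifier to RefSeq (GRCm38.p6). A gene was called higher when its signal passed that array's limit and the ratio, with signals raised to the limits, was 4 or more. Every member above a limit was named; of other lists and markers, genes called 4-fold different and up to 4 with high signals. A few further markers were picked after their values were seen. Members, lists and rules were chosen with earlier results of these data known. Promoters were RefSeq sequences. The calling was tested on simulated data. Python 3.11.15, numpy 2.4.6 and pandas 2.3.3 were used. A total of 9 other settings were run.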

Additional observations from a re-analysis of the deposited data

How the results depend on the processing

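No paired analysis was possible because each age has 1 cell, and for the same reason no replicate could be left out. With the limit at the 95th percentile the members above it at P0 numbered 22 in place of 12 (40.3% of all named genes were above it). With the limit from 12 probe sets of bacterial controls they numbered 32 (42.1%, against 49.2% of all named genes), with 19 in place of 10 in both cells, where 5505 of 18194 named genes were. The 10 genes called 4-fold different kept their calls under both limits, and Cldn1 and Pard6g joined them at E12.5, making 8 in place of 6. With all probe sets of a gene averaged, 7 members were above the limit at P0 (9.21%, against 17.6% of all named genes) and 4 in both (1968 of all), and Gja1, Pard3 and Tspan18 lost their calls; Cldn1, Cldn3, Pard3 and Tspan18 were then below both limits and have no ratio. Without probe sets ending in _x_at or _s_at, Tspan12 and Tspan14 were not measured, the other 8 calls were kept and Pard6b became 4-fold higher at E12.5, as it did with the average. Scaled to the spike-ins, 2 members in place of 4 were 4-fold higher at P0 and 7 at E12.5, beside 1145 and 2034 of all named genes. With no limit at all, 15 were 4-fold higher at P0 and 19 at E12.5 (3924 and 4115 of all), most of them between signals under background. At 8-fold or more, 2 were higher in each cell (1013 and 598 of all), Gjc1 and Tspan12 at P0 and Cldn12 and Pard3 at E12.5. Of 154 recomputed ratios of single genes, 118 moved by less than the spread between probe sets and 36 by more; none of a called gene changed sign where a ratio could be had. The causes were not tested beyond what the settings themselves change.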

Other observations

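Tetraspanins with other names and the proteins that tetraspanins bind were tallied as well. Of 10 measured tetraspanins outside the Tspan series, 3 were above the limit at P0 and 2 at E12.5, where 28.4% and 30.6% of all named genes were. Cd9, which takes part in membrane fusion and integrin patches, had 10233 at P0 and 48.1 at E12.5, at least 42.6-fold higher at P0. Cd81, its relative, had 8151 at P0 and 2363 at E12.5, 3.45-fold higher at P0, and the laminin receptor partner Cd151 had 2866 and 5903, 2.06-fold higher at E12.5. Of 8 measured partners, 5 were above the limit at P0 and 6 at E12.5, against the same shares of the array. The Cd9 partner Ptgfrn (2323 at P0 and 497 at E12.5), the laminin receptor subunit Itga6 (3184 and 652) and the membrane protease Mmp14 (11823 and 2329) were between 4.67-fold and 5.08-fold higher at P0, and none of the 8 was 4-fold higher at E12.5; of all named genes 9.42% were 4-fold higher at P0 and 7.37% at E12.5. The protease Adam10 had 11343 at P0 and 9070 at E12.5.

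Of 10 genes for proteins that bind or modify connexins and pannexins, 5 were above the limit at P0 and 6 at E12.5, and 0 differed by 4-fold in either direction. The array shares were 28.4% and 30.6% above the limits, and 9.42% and 7.37% at least 4-fold higher, so little can be read from 10 genes. The kinase gene Src had 5920 at P0 and 5523 at E12.5, and the ubiquitin ligase gene Nedd4 had 10811 and 14401.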
